A study of Mus musculus with 6 samples.

Results

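Newly formed oligodendrocytes are the short-lived stage between a dividing oligodendrocyte precursor and a myelin-forming cell. They were picked here from single-nucleus RNA counts of mouse lumbar spinal cord as the nuclei that held at least 1 unique molecular identifier (UMI, 1 counted RNA molecule) of Bcas1, together with at least 1 UMI of Gpr17 or at least 2 of Enpp6. They also had to hold 0 UMIs of the precursor gene Pdgfra, 0 UMIs of the mature genes Klk6 and Hapln2, and at most 1 UMI of the neuronal genes Snap25 and Rbfox3. Of 42628 nuclei with at least 500 UMIs and under 5% mitochondrial UMIs, 246 met this rule, a share of 0.577%. The 246 nuclei held 789003 UMIs in all, with a median of 2664 UMIs per nucleus.

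All mice were C57BL/6, 110 days old and carried SOD1G93A, a mutant SOD1 transgene that gives mice a motor neuron disease. Mice of one genotype were also PHD1-/- and lacked the oxygen-sensing prolyl hydroxylase PHD1, made by the gene Egln2, and their controls were PHD1+/+. Each genotype had 3 libraries, drawn from littermate pairs, and no group without the SOD1G93A transgene was analysed here. The labels do not say in which cells PHD1 was removed, how many mice a library holds or whether a replicate number marks a littermate pair.

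Members numbered 32, 55 and 39 in PHD1-/- replicates 1, 2 and 3, against 27, 68 and 25 in PHD1+/+ replicates 1, 2 and 3. Replicate 1 of both groups stood apart. The first barcode listed in each of its libraries begins with another sequence than that in replicates 2 and 3. The nuclei of replicate 1 were shallower, the median being 1365 UMIs for PHD1-/- and 1363 UMIs for PHD1+/+. The 4 libraries of replicates 2 and 3 had medians of 2362.5 to 2974 UMIs. Any pair of libraries shared 0 to 86 barcodes, and none of these belonged to a member. Egln2, the targeted gene, was at 9.65, 8.97 and 10.1 CPM (counts per 1000000, a gene's UMIs over all UMIs of the same nuclei) over all nuclei of PHD1-/- replicates 1, 2 and 3, against 29.6, 18.6 and 16.3 CPM in PHD1+/+. The lowest PHD1+/+ library lay above the highest PHD1-/- library.

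A precursor that leaves the cell cycle first switches on Bcas1, a gene of early myelin-forming cells, and the receptor Gpr17, which holds back maturation and is lost again as myelin is made. Enpp6, a choline phosphodiesterase, marks cells that have just begun to differentiate, and the transcription factors Tcf7l2 and Myrf then drive the myelin genes Mbp, Mog and Mag. In the adult cord this stage is rare, and it is read as a sign that oligodendrocytes are still being made. Both neighbouring stages were drawn from the same counts. Precursors, 509 nuclei, held at least 2 UMIs of Pdgfra, or 1 with Cspg4, and no Mog. Mature oligodendrocytes, 9347 nuclei, held both Mog and Mag and neither Pdgfra nor Gpr17.

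The promoters of 3 genes whose levels set members apart from both other stages are shown as examples. Each sequence runs 5′ to 3′ on the gene's own strand, from 250 bases before to 50 bases after the start of the gene, from RefSeq on GRCm38.p6. Capitals mark the letters ACAAAG, the core bound by Sox factors, and CAGCTG, an E-box, read on both strands. The Bmp4 promoter lies at chr14:46390620-46390919 on the minus strand and holds 0 matches of either motif. That of the long non-coding RNA 9630013A20Rik lies at chr14:84476375-84476674 on the minus strand and holds 1 E-box. That of Cnksr3, a scaffold of signalling kinases, lies at chr10:7212188-7212487 on the minus strand and holds 1 match of each. The promoters of Enpp6, Fyn and Tns3, read in the same way and not shown, held 0 matches of either motif.

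Bmp4: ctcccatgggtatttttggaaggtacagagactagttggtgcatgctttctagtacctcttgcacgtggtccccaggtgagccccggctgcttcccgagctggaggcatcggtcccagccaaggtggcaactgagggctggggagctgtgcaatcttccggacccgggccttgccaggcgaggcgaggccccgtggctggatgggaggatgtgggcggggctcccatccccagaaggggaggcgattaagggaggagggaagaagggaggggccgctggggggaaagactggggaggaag
9630013A20Rik: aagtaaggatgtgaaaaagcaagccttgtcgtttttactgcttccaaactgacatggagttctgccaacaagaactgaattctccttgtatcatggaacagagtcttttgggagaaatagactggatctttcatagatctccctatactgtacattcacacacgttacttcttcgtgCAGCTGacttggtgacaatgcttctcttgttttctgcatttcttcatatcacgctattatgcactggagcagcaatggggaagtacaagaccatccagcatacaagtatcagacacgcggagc
Cnksr3: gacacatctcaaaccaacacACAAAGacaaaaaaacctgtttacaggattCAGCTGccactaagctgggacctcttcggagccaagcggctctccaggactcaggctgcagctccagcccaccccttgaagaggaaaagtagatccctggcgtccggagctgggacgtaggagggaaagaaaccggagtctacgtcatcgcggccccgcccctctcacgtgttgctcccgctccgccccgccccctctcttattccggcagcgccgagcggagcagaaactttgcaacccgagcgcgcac

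Among the 20 genes with the highest ratio to both other stages, 15 had a promoter in this table. The E-box was in 7 of the 15, and in 16.3% of all 32851 promoters of the table. ACAAAG was in 3 of the 15 and in 18.7% of all promoters, and CTTTGA, a Tcf/Lef core, in 3 of the 15 and in 16.0%. These are letter matches only.

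The label held for most but not all members. 9630013A20Rik, also known as lncOL1 and a marker of differentiating oligodendrocytes that the rule did not use, had at least 1 UMI in 147 of 246 members, 59.8%. The share was 6.09% in precursors, 1.39% in mature oligodendrocytes, 5.60% in neurons and 0.345% in microglia, a cell type that should lack it. Median depths per library were 1533.5 to 4853 UMIs in members, 1337 to 2915 in precursors, 999.5 to 2112 in mature oligodendrocytes, 2963 to 7355 in neurons and 713 to 1614 in microglia. After every nucleus was thinned to 1000 UMIs, which left out 6 members, 18 precursors, 1861 mature oligodendrocytes, 78 neurons and 444 microglia that were shallower, the shares were 50.4% in members, 1.63% in precursors, 0.922% in mature oligodendrocytes, 0.906% in neurons and 0.199% in microglia. Gpr17, by comparison, had a UMI in 0.772% of neurons and 0.689% of microglia. All 12 stage markers that the rule did not use were on average above both precursors and mature oligodendrocytes, and for 10 of them every member library lay above every library of the other stages. These are Tns3, Itpr2, Fyn, Bmp4, Mycl, Sirt2, 9630013A20Rik, Cnksr3, Tmem163 and Prom1. Over all 6304 genes with at least 20 UMIs in members, 29.9% had a member mean above both other stages, 40.9% between them and 29.2% below both, and 3.08% had every member library above every library of both others. The marker list was chosen with earlier results of these data known, so it is not independent of them. Tns3, Fyn, Sirt2, Bmp4 and Itpr2 recur in the gene lists below. Since the rule also chose these nuclei on genes of the same cells, all values against the other stages are given as a description, without a test.

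The other 99 members, without a 9630013A20Rik UMI, differed in stage markers, in mature markers and in single genes. They were shallower, with a median of 2062 UMIs against 3325 in the 147 with one. Tcf7l2, a Wnt pathway transcription factor that switches on at this stage, averaged 1808 ± 469 CPM in members with 9630013A20Rik and 172 ± 102 CPM in those without (SD over 6 libraries). Nfasc, the neurofascin that anchors myelin to axons, averaged 3908 ± 409 and 832 ± 566 CPM in the same 2 sets. Trf and Prr5l were in the opposite order. Trf, transferrin, averaged 237 ± 75.5 CPM with 9630013A20Rik and 1977 ± 813 CPM without it, and Prr5l 49.9 ± 15.7 and 1559 ± 765 CPM. Summed over the 12 stage markers outside the rule, members with 9630013A20Rik had 15892 CPM and those without 1779 CPM. The split itself sets 9630013A20Rik, 1 of the 12, to 0 in the latter. The same list came to 1525 CPM in precursors and 607 CPM in mature oligodendrocytes. Mature markers outside the rule summed to 10252.5 CPM with 9630013A20Rik and 24685 CPM without it. In mature oligodendrocytes, whose rule required Mog and Mag, they came to 31216 CPM. This split was chosen after the values were seen.

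The 3 routes into the rule gave nuclei of different kinds. Members with both Gpr17 and at least 2 Enpp6 UMIs numbered 87, those with Gpr17 only 67, and those with Enpp6 only 92. Their median depths were 4255, 2008 and 2248.5 UMIs, so the both route held the deeper nuclei. 9630013A20Rik was found in 97.7% of the both route, 43.3% of the Gpr17 route and 35.9% of the Enpp6 route. The last value pools unlike libraries. In the Enpp6 route 15 of 18, 5 of 23 and 2 of 13 nuclei had it in PHD1-/- replicates 1, 2 and 3, against 8 of 9, 3 of 19 and 0 of 10 in PHD1+/+, so that replicate 1 of both groups stood far above the rest. Bmp4, a secreted morphogen that holds back oligodendrocyte differentiation, had a UMI in 59.8%, 20.9% and 7.61% of the same routes. Vcan, the versican core protein of precursors, had a UMI in 75.9% of the both route, 61.2% of the Gpr17 route and 13.0% of the Enpp6 route. Mog or Mag was found in 73.6%, 44.8% and 94.6%. A UMI of Mog or Mag was least frequent in the Gpr17 route, and both Vcan and Mog or Mag were frequent in the both route.

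Levels summed over each route differed as well. Ptprz1, a receptor phosphatase of precursors, was at 761, 456 and 51.1 CPM in the Gpr17 only, both and Enpp6 only routes. Tns3, a focal adhesion protein, was at 645, 2330 and 903 CPM. Tcf7l2 was at 290, 1801 and 1333 CPM. Anln, which encodes anillin, a late myelin gene, was at 46.5, 15.7 and 605 CPM. Some mature genes were high in the Gpr17 only route too. Mobp was at 1208, 115 and 886 CPM and Opalin at 331, 78.5 and 238 CPM in the same order. Of the 67 nuclei of the Gpr17 only route, 18 had Mog or Mag and no 9630013A20Rik.

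**Figure D1:**
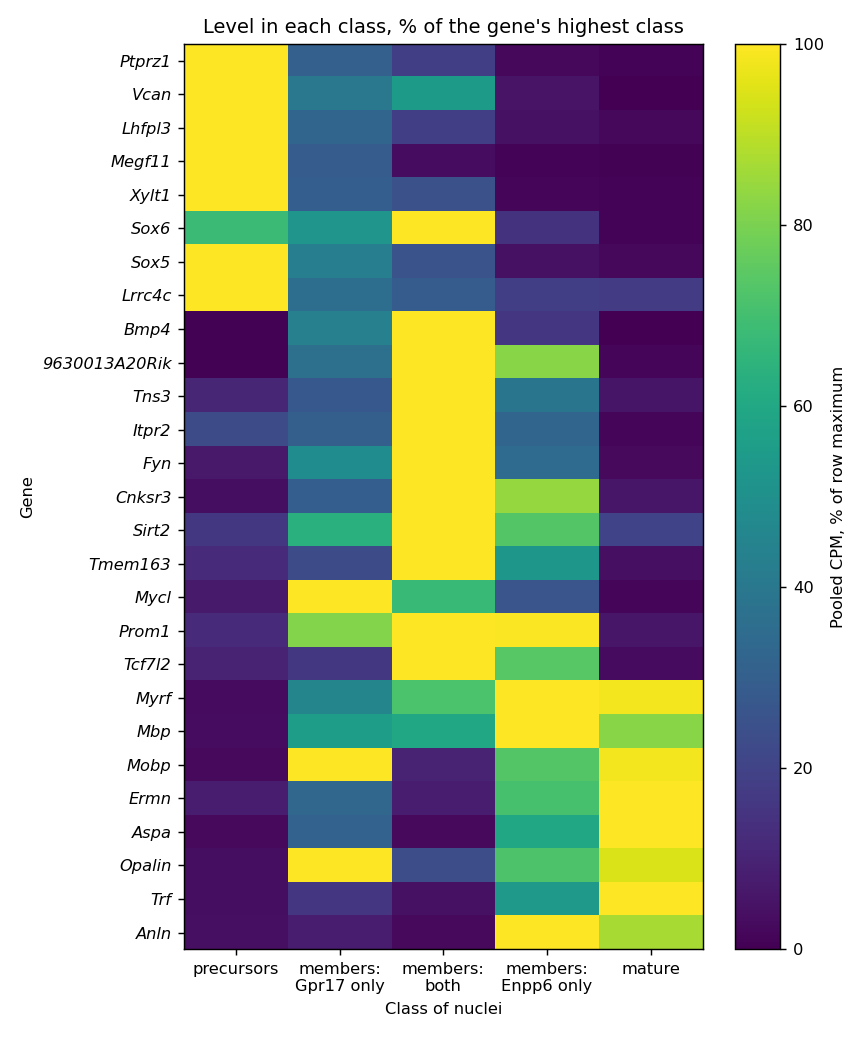
Level of 27 stage genes in precursors, the 3 routes of newly formed oligodendrocytes and mature oligodendrocytes. Colour gives CPM from UMIs summed over all 6 libraries, as a percent of the gene's highest class; Bmp4 peaks in the both route and Trf in mature cells.

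At the edge of the rule, members with exactly 2 Enpp6 UMIs and no Gpr17 numbered 44, and 22.7% of them had 9630013A20Rik. The 192 nuclei just outside, with 1 Enpp6 UMI, had it in 2.60%. Members with exactly 1 Gpr17 UMI and at most 1 of Enpp6 numbered 36, and 30.6% had it, against 2.28% of the 2673 nuclei with neither. Members with exactly 1 Bcas1 UMI numbered 54 and 7.41% had it, close to the 9.01% of the 111 nuclei with 0 Bcas1 UMIs. Of 1476 nuclei that passed the Bcas1, Gpr17 and Enpp6 terms, 1033 held Klk6 or Hapln2, 264 held more than 1 neuronal UMI and 190 held Pdgfra.

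The 20 leading genes of the class were taken by the ratio of the member mean to the higher of the 2 other means, among 2501 genes with at least 60 member UMIs and at least 1 in every library. Of the 2501, 7.60% exceeded a ratio of 2 and 2.76% a ratio of 4. For all 20, the lowest member library lay above the highest library of precursors and of mature oligodendrocytes, which choosing them by this ratio and by member UMIs largely fixes. Bmp4 led the list. It was at 313, 139 and 159 CPM in members of PHD1-/- replicates 1, 2 and 3, and at 303, 232 and 199 CPM in those of PHD1+/+. Its mean was 224 ± 72.6 CPM in members, against 1.23 ± 1.98 CPM in precursors and 0.973 ± 0.480 CPM in mature oligodendrocytes (SD over 6 libraries), 182 times the higher of these. Precursors held 2 Bmp4 UMIs in all and mature oligodendrocytes 16, so the size of this ratio is imprecise. Replicate 1 was the highest library in each group, and the groups overlapped.

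9630013A20Rik came next, at 8295, 2524 and 3304 CPM in PHD1-/- replicates 1, 2 and 3, against 4361, 2861 and 3570 CPM in PHD1+/+. The mean of 4153 ± 2125 CPM was 65.9 times that of mature oligodendrocytes, 63.0 ± 41.1 CPM, with 32.4 ± 37.9 CPM in precursors. PHD1-/- replicate 1 stood far above the other 5 libraries. The gene (ENSMUSG00000115529, chr14:84458639-84476424, minus strand) overlaps Pcdh17, which runs on the plus strand. 9530059O14Rik, a second long non-coding RNA (chr9:122572499-122679596, plus strand), averaged 1963 ± 282 CPM in members, against 8.84 ± 9.97 CPM in precursors and 142 ± 18.6 CPM in mature oligodendrocytes.

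Among protein-coding genes, Frmd4a, a scaffold of cell polarity, averaged 7501 ± 1263 CPM in members, 439 ± 126 CPM in precursors and 227 ± 38.9 CPM in mature oligodendrocytes, a ratio of 17.1 to the higher. Its values were 7252, 7188 and 9827 CPM in PHD1-/- members and 6017, 7074 and 7650 CPM in PHD1+/+ members. Summed over nuclei, Frmd4a was at 10612 CPM in members with 9630013A20Rik and 465 CPM in those without. It was at 1063, 11599 and 6442 CPM in the Gpr17 only, both and Enpp6 only routes. The member means of the 20 leading genes thus blend unlike sets, and each of these genes was lower in members without 9630013A20Rik. Fyn, the Src-family kinase that passes axonal contact on to the oligodendrocyte skeleton, averaged 2860 ± 377 CPM in members, 249.9 ± 61.4 CPM in precursors and 102 ± 20.2 CPM in mature oligodendrocytes. Pik3r3, a regulatory subunit of phosphoinositide 3-kinase, stood at 11.3 times the higher of the other 2 stages and Cnksr3 at 13.7 times. Sema4a, a semaphorin, had a ratio of 24.4, Parvb, a parvin that links integrins to actin, 13.0, and Epb41l2, a membrane skeleton protein, 8.52. The rest of the 20 were D430041D05Rik, Kif19a, Pnpla3, Col20a1, Cemip2, Gng4 and Pdcd4, with ratios of 8.40 to 29.6, and 3 non-coding genes that overlap a protein-coding leader. Gm36988 and Gm13187 lie inside Frmd4a and Gm16364 overlaps Fyn. The sources do not state how reads that fall in both were assigned, so those 3 are uncertain, as are 9630013A20Rik, on which the check of the label and the split of members by it rest, and Bmp4, D430041D05Rik and 9530059O14Rik to the extent that each overlaps another gene.

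**Figure D2:**
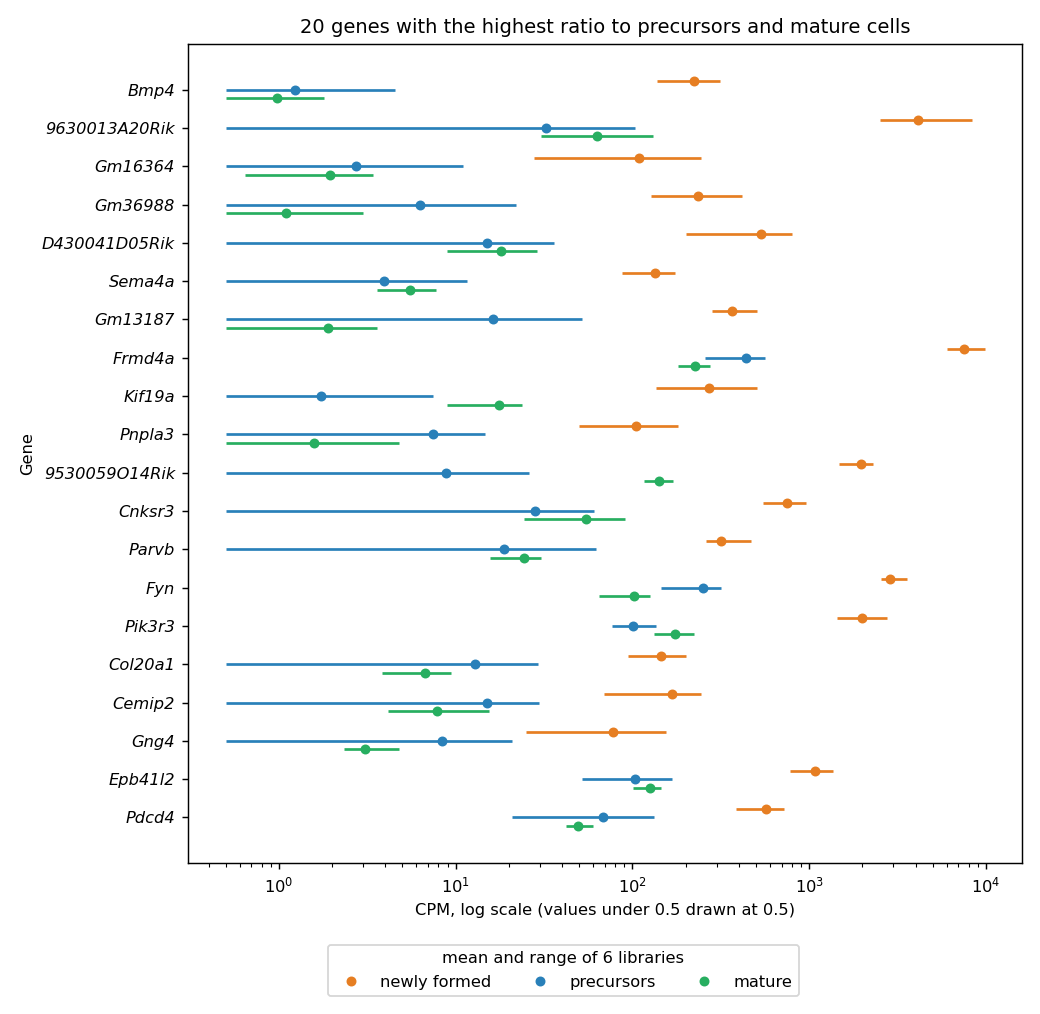
Mean (point) and range over 6 libraries (line) of the 20 leading genes in newly formed oligodendrocytes, precursors and mature oligodendrocytes, in CPM on a log axis. In each gene the member range lies above both other ranges, from Bmp4 with a ratio of 182 down to Pdcd4 with 8.40. The Bmp4 ratio is imprecise, as precursors held 2 Bmp4 UMIs in all.

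Of the transcription factors, 21 of 30 listed had at least 20 member UMIs, and 11 were on average above both other stages, 8 between and 2 below. The shares of all genes were 29.9% above both, 40.9% between and 29.2% below both. Tcf7l2 was the one for which all libraries were apart, at 1364 ± 405 CPM in members, 164 ± 83.0 CPM in precursors and 52.0 ± 8.17 CPM in mature oligodendrocytes. Sox4, which is expressed in cells on the way to differentiation, averaged 219 ± 120, 61.2 ± 48.3 and 10.7 ± 7.14 CPM in the same order, with overlapping libraries. Myrf, the factor that switches on myelin genes, stood between at 152 ± 50.1 CPM in members, 4.11 ± 4.24 CPM in precursors and 196 ± 35.9 CPM in mature oligodendrocytes. St18 was at 2846 ± 806 CPM in members and 2836 ± 721 CPM in mature oligodendrocytes, a difference far within the spread, against 42.7 ± 41.6 CPM in precursors. Sox6, a precursor factor, was still at 1447 ± 233 CPM in members, against 1428 ± 330 CPM in precursors and 23.9 ± 13.98 CPM in mature oligodendrocytes.

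Myelin genes were mostly at intermediate levels: of 27 of 31 listed with enough UMIs, 24 were between the 2 other stages, 2 above both and 1 below both, where 40.9% of all genes were between. The member mean blends unlike sets. Summed over the list, these genes came to 18699 CPM in members with 9630013A20Rik and 33559 CPM in those without. In precursors and mature oligodendrocytes, whose rule required Mog and Mag, the sums were 2840 and 38343 CPM. Mbp, myelin basic protein, was already at 3068 ± 435 CPM in members, against 247 ± 235 CPM in precursors and 3648 ± 193 CPM in mature oligodendrocytes. Mog, of the outer sheath, was at 501 ± 132 CPM in members, at 0 in precursors, whose rule required this, and at 1496 ± 217 CPM in mature oligodendrocytes, whose rule required a UMI. Trf was at 733 ± 260 CPM in members and 3755 ± 736 CPM in mature oligodendrocytes, and Aspa, an enzyme of acetate supply for myelin lipids, at 228 ± 119 and 962 ± 238 CPM. The 2 genes above both were Nfasc, at 3066 ± 442 CPM in members, 181 ± 47.7 CPM in precursors and 706 ± 167 CPM in mature oligodendrocytes, and the connexin Gjc3, at 1012 ± 283, 399.6 ± 57.5 and 511 ± 73.7 CPM.

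Of 31 skeleton and outgrowth genes with enough UMIs, 12 of them above both stages on average, 9 had every member library above every other library, where 3.08% of all genes did. These were Tns3, Fyn, Map1b, Dpysl2, Arhgap35, Arhgap5, Wasf1, Cyfip2 and Sirt2. Map1b, a microtubule protein of growing processes, averaged 1646 ± 305 CPM in members, 233 ± 78.2 CPM in precursors and 283 ± 34.1 CPM in mature oligodendrocytes. Arhgap35, the p190 RhoGAP that Fyn acts on, averaged 678 ± 171, 170.4 ± 45.0 and 118 ± 25.7 CPM. Wasf1 and Cyfip2, both of the actin-branching WAVE complex, averaged 197 ± 44.6 and 296 ± 87.7 CPM in members, with means of 52.8 to 78.3 CPM in the other stages.

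Among 33 receptors and adhesion genes, 5 had every member library above, Fyn, Cadm2, Sema5a, Sema4d and Plxnb3, where 3.08% of all genes did. The guidance receptors Dcc and Robo1, 2 of the 33, had every member library below, where 0.365% of all genes were so. Cadm2, an adhesion molecule that faces the axon, averaged 5571 ± 966 CPM in members, 2087 ± 446 CPM in precursors and 1184 ± 162 CPM in mature oligodendrocytes. Dcc, the netrin receptor, averaged 312 ± 94.5 CPM in members, 1518 ± 339 CPM in precursors and 712 ± 103 CPM in mature oligodendrocytes. Robo1, a Slit receptor, averaged 347 ± 65.4, 1134 ± 149 and 768 ± 110 CPM.

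Of 19 Wnt, BMP, Notch, FGF and ErbB genes, 3 had every member library above the rest, where 3.08% of all genes did. These were Tcf7l2, Bmp4 and Nrg1. Nrg1, a ligand of ErbB receptors, averaged 752 ± 107 CPM in members, 141 ± 27.9 CPM in precursors and 76.5 ± 68.0 CPM in mature oligodendrocytes. Its receptor Erbb4 was between, at 1947 ± 535, 2257 ± 558 and 1166 ± 211 CPM, within the spread of precursors. Axin2, a target of Wnt signalling, averaged 29.2 ± 19.2 CPM in members, 17.6 ± 14.9 CPM in precursors and 5.04 ± 1.31 CPM in mature oligodendrocytes.

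Of 30 glutamate, GABA and channel genes, 16 were between, 10 below both and 4 above both. Over all genes, 40.9% were between, 29.2% below both and 29.9% above both. Several genes of precursors were much lower in members. Kcnd2, a potassium channel, was at 356 ± 169 CPM in members and 3405 ± 604 CPM in precursors, and Grm5, a metabotropic glutamate receptor, at 225 ± 93.0 and 1558 ± 158 CPM. Grik2, a kainate receptor, was the other way, at 1777 ± 256 CPM in members, 943 ± 252 CPM in precursors and 907 ± 208 CPM in mature oligodendrocytes, and Itpr2, the calcium release channel, at 923 ± 136, 309.6 ± 64.3 and 25.05 ± 7.94 CPM.

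Of 31 cholesterol and lipid genes with enough UMIs, 16 were above both stages on average, where 29.9% of all genes were, but none had every member library above. Among the 16 were Hmgcs1, Sqle and Lss, enzymes of cholesterol synthesis. Hmgcs1, of an early step, averaged 124 ± 49.5 CPM in members, 79.5 ± 30.9 CPM in precursors and 111 ± 14.2 CPM in mature oligodendrocytes, a difference from mature cells within the spread. Fdft1, which makes squalene, averaged 85.8 ± 40.7 CPM in members, 47.1 ± 25.4 CPM in precursors and 84.6 ± 6.603 CPM in mature oligodendrocytes, and likewise differed from mature cells by less than the spread. Summed over the list, members were lower than mature oligodendrocytes, at 5403 CPM against 7346 CPM, with 2898 CPM in precursors. The sum was 4671 CPM in members with 9630013A20Rik and 7280 CPM in those without.

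Cell cycle genes were scarce. Of 28 listed, 3 had 20 member UMIs. Mki67 had a UMI in 1 of 246 members, 0.407%, against 19 of 509 precursors, 3.73%, and Top2a in 0 of 246 members, against 5.30% of precursors. The 0 allows up to 1.22% of nuclei with a Top2a UMI, which sets no limit on the share that express the gene. Ribosomal protein genes were below both stages in 28 of 30 cases, oxidative phosphorylation genes in 21 of 25 and mitochondrially encoded genes in 8 of 9, where 29.2% of all genes were. Of the 9 oxygen-sensing genes with enough UMIs 7 were below both stages, and of 17 HIF targets 10. For 2 mitochondrially encoded genes, mt-Nd2 and mt-Nd4, every member library lay below every other library, where 0.365% of all genes did. In the other lists of this paragraph 0 genes did. Ribosomal protein genes summed to 3147, 2102 and 2648 CPM in the Gpr17 only, both and Enpp6 only routes. The part of depth in these values was not tested.

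**Figure D3:**
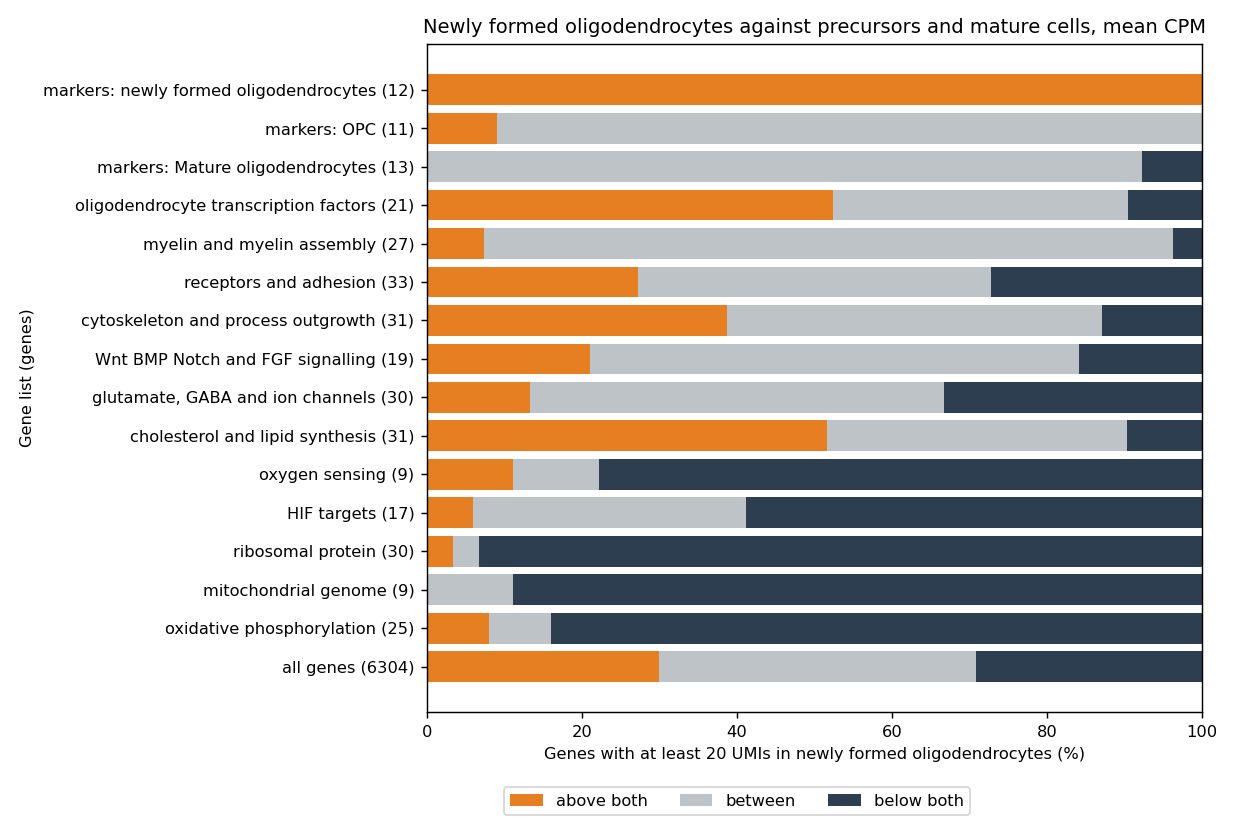
Share of genes in each list whose mean CPM in newly formed oligodendrocytes was above, between or below the means of precursors and mature oligodendrocytes, with the number of genes in brackets. The bottom bar holds all 6304 genes with at least 20 member UMIs; 24 of 27 myelin genes were between and 28 of 30 ribosomal protein genes below both.

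RNA of other cell types was low. Summed over the list, astrocyte markers came to 188 CPM in members, microglia markers to 171 CPM against 13681 CPM in microglia, and neuronal markers other than those of the rule to 460 CPM against 8714 CPM in neurons. Endothelial, Schwann, mural, fibroblast and ependymal lists each came to 33.0 CPM or less, and 3 of 7 endothelial, 2 of 6 Schwann, 3 of 5 mural, 2 of 5 fibroblast and 1 of 5 ependymal markers were at 0. The precursor class carried more of them, with 550 CPM of fibroblast markers, which touches every ratio to precursors and whose part was not tested.

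The genotypes held members at overlapping shares. Of all nuclei, 0.486%, 0.743% and 0.638% were members in PHD1-/- replicates 1, 2 and 3, against 0.295%, 0.848% and 0.466% in PHD1+/+. The exact 95% binomial intervals, which cover counting error only, were 0.332 to 0.685%, 0.561 to 0.967% and 0.454 to 0.871% in PHD1-/-. They were 0.194 to 0.429%, 0.659 to 1.07% and 0.302 to 0.688% in PHD1+/+. PHD1+/+ replicates 1 and 2 were the lowest and the highest library of all. The means were 0.622 ± 0.130% over PHD1-/- libraries and 0.537 ± 0.283% over PHD1+/+ libraries (SD, n = 3 each), a difference of 0.0860 percentage points with an exact two-sided permutation p of 0.70. With 3 libraries against 3 this test cannot go below 0.10.

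Of oligodendrocyte-lineage nuclei, the sum of precursors, members and mature oligodendrocytes, 2.31%, 2.45% and 2.74% were members in PHD1-/- replicates 1, 2 and 3, against 1.63%, 2.95% and 2.29% in PHD1+/+. The means were 2.50 ± 0.218% for PHD1-/- and 2.29 ± 0.662% for PHD1+/+ libraries (SD, n = 3 each), with a p of 0.70 in the same exact permutation test. Without PHD1+/+ replicate 2 the difference grew to 0.540 percentage points from 0.209, and without PHD1+/+ replicate 1 it turned to -0.122. Per 100 precursors there were 66.8 ± 39.1 members in PHD1-/- and 50.9 ± 23.7 for PHD1+/+ libraries, with an exact permutation p of 0.60. With libraries taken as pairs by number, which the labels do not state, PHD1-/- was higher in 3 of 3. The exact sign-flip p was 0.25, the smallest that 3 pairs can give. The difference of 15.9 turned to -5.88 without PHD1-/- replicate 1 and to -1.43 without members that held Mog or Mag, and was 29.0 without PHD1+/+ replicate 1, 32.0 without PHD1-/- replicate 3, 5.86 without PHD1+/+ replicate 3 and 7.23 in replicates 2 and 3 alone. A smaller number of such cells and less RNA per cell cannot be told apart by these shares.

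**Figure D4:**
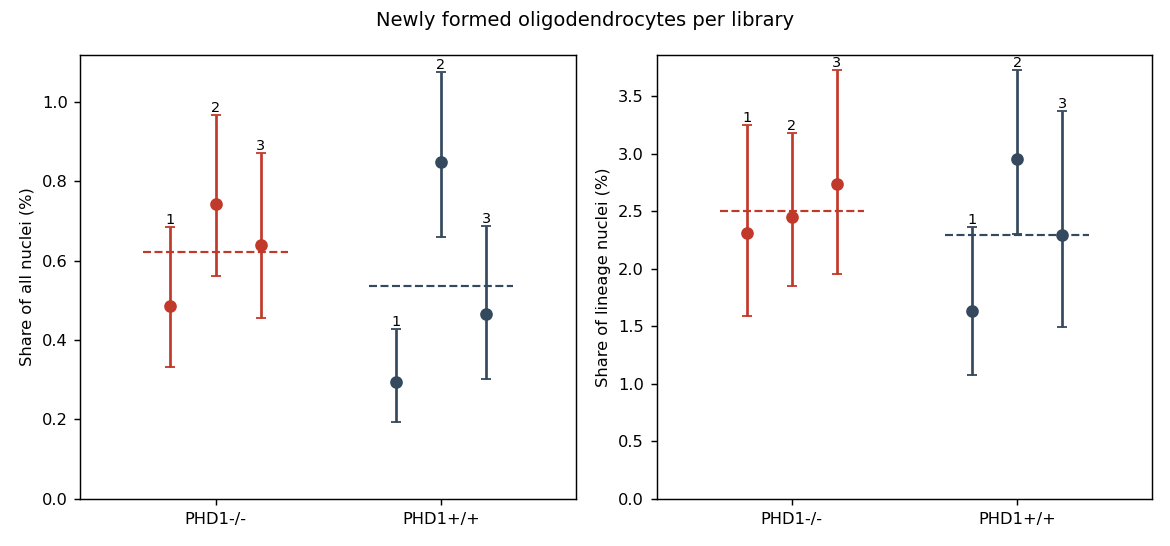
Newly formed oligodendrocytes as a percent of all nuclei (left) and of oligodendrocyte-lineage nuclei (right) in each library, numbered by replicate, with exact 95% binomial intervals; dashed lines are group means. The PHD1-/- libraries span 0.486 to 0.743% of nuclei and lie within the range of PHD1+/+, 0.295 to 0.848%.

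The make-up of the members was compared by 2 readouts outside the rule. 9630013A20Rik was found in 71.9%, 54.5% and 61.5% of members in PHD1-/- replicates 1, 2 and 3, against 63.0%, 58.8% and 52.0% in PHD1+/+. Mog or Mag was found in 65.6%, 81.8% and 84.6% of PHD1-/- members, against 51.9%, 73.5% and 72.0% of PHD1+/+ members. For Mog or Mag the ranges overlapped, PHD1-/- was higher at each of the 3 replicate numbers, and each group was lowest in the shallower replicate 1. This difference was not tested.

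UMIs of the members were summed per library and compared between genotypes with edgeR's quasi-likelihood test. Of 2709 genes tested, 0 passed an adjusted p of 0.05 (0.0% of genes), 32 had an unadjusted p under 0.05 (1.18%), and DESeq2 passed 0 with 11 at an unadjusted p under 0.05 (0.406%). Every PHD1-/- library was above every PHD1+/+ library for 2.99% of genes and below for 2.66%. A library held 25 to 68 members, which limits the precision of each value. Levels of tested genes from here on are CPM corrected by edgeR's TMM scaling, while sums over lists and Egln2 are plain CPM, and differences are log2 of PHD1-/- over PHD1+/+.

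The genes of smallest p are given as values that did not pass, each with an adjusted p of 1.00 in edgeR's test. On the higher side were Cacnb4, Xrcc4, 1700042O10Rik, Mtif2, Arhgef7, Litaf, Acss2 and Gfra1. Cacnb4, a calcium channel subunit, was at 340.5, 528 and 470.3 CPM in PHD1-/- replicates 1, 2 and 3, against 93.3, 202 and 301 CPM in PHD1+/+, a log2 difference of 1.12 ± 0.36 (SE). The groups did not overlap. Acss2, which makes acetyl-CoA from acetate, was at 209.5, 226 and 287 CPM in PHD1-/- and 62.2, 165 and 120.4 CPM in PHD1+/+ (0.89 ± 0.36). Gfra1, a receptor of the GDNF family, was at 288, 260.5 and 255 CPM in PHD1-/- and 249, 128 and 120.4 CPM in PHD1+/+ (0.83 ± 0.36). For Xrcc4, of DNA end joining, the difference was 1.00 ± 0.35, with 314, 535 and 281 CPM in PHD1-/- against 187, 181 and 211 CPM in PHD1+/+. It was 0.61 without PHD1-/- replicate 2 and 0.38 where members needed Gpr17, a change that also left Cacnb4 at 0.61. For 1700042O10Rik, Mtif2 and Arhgef7, PHD1-/- replicate 1 stood far above the other libraries, and without it Arhgef7 differed by 0.85. In replicates 2 and 3 alone 1700042O10Rik differed by 0.87.

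On the lower side were Syn2, Tshz3, Slc24a3, 2900097C17Rik, Foxn2, Cadps, Sv2a and Sema5b. Slc24a3, a sodium, potassium and calcium exchanger, was at 105, 226 and 196 CPM in PHD1-/- replicates 1, 2 and 3, against 342, 303 and 542 CPM in PHD1+/+, a log2 difference of -1.04 ± 0.36 (SE). Tshz3 had the largest difference of the 16, -1.79 ± 0.62, at 131, 48.0 and 13.1 CPM in PHD1-/- and 187, 122 and 196 CPM in PHD1+/+, with overlapping groups. Syn2, Cadps and Sv2a, genes of synaptic vesicles, had differences of -1.30 ± 0.44, -0.86 ± 0.36 and -0.90 ± 0.38. Cadps was at -0.54 without PHD1+/+ replicate 2, and Sv2a at -1.48 where members needed Gpr17. Neuronal markers summed to 296 to 852 CPM in members of PHD1-/- and 349 to 1393 CPM in those of PHD1+/+, and 0 of the 11 outside the rule were at 0 over all members. Of these, Snhg11 and Nefm entered the test, with differences of -1.16 and -0.41 that did not pass. Their part in the values of Syn2, Cadps and Sv2a was not tested.

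**Figure D5:**
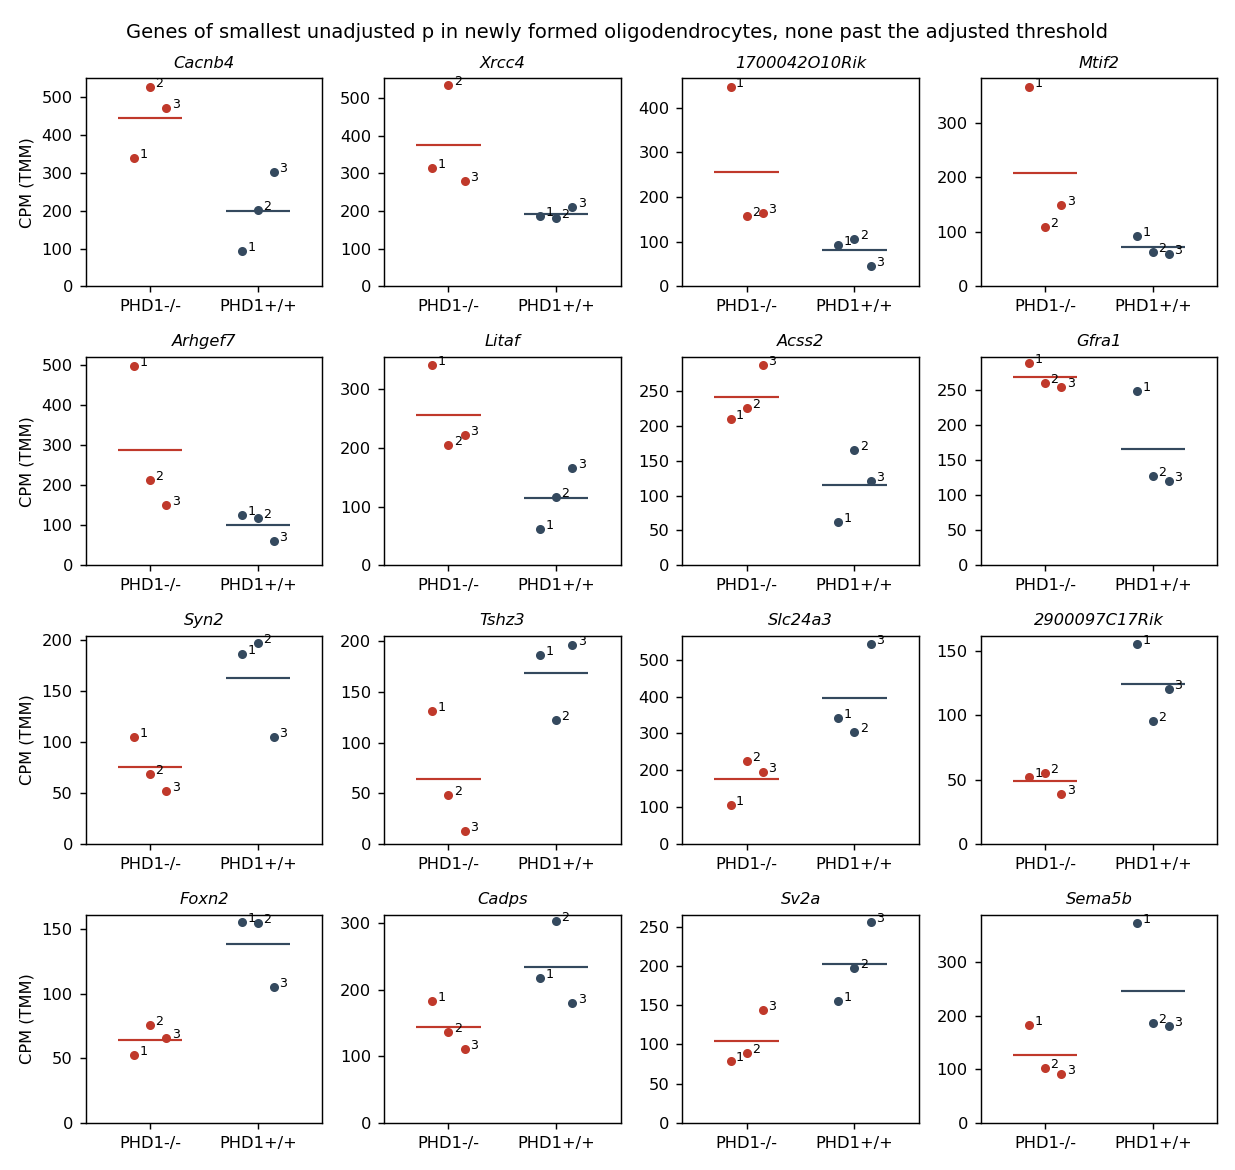
TMM-scaled CPM in newly formed oligodendrocytes of each library, numbered by replicate, for the 8 genes of smallest unadjusted p on each side, PHD1-/- left and PHD1+/+ right; lines are group means. Groups are apart in all but Tshz3, Cadps and Sema5b, which choosing the genes by p largely fixes, and no gene passed the adjusted threshold. Of all 2709 genes tested, 2.99% had every PHD1-/- library above every PHD1+/+ library and 2.66% below.

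The genes that define the stage did not pass either. Of the 12 stage markers outside the rule, 11 were tested, 4 were higher in PHD1-/- and 7 lower, none past the threshold, with a median log2 difference of -0.11 against -0.01 over all genes tested. Leaving out 1 library gave a median of -0.14 to 0.04. Tns3 differed by -0.01 ± 0.23, Itpr2 by -0.11 ± 0.24, Fyn by 0.09 ± 0.27 and Bmp4 by -0.35 ± 0.42. The genes of the rule are given as values only. Gpr17 differed by -0.60 ± 0.27, with every PHD1-/- library below every PHD1+/+ library, Bcas1 by -0.10 ± 0.21 and Enpp6 by -0.08 ± 0.24. 9630013A20Rik differed by 0.43 ± 0.45, and by -0.11 in replicates 2 and 3 alone. Tcf7l2 was at 3221, 1590 and 1679 CPM in PHD1-/- and 1680, 1622 and 1204 CPM in PHD1+/+ (0.51 ± 0.31). PHD1-/- replicate 1 was the high library, and in replicates 2 and 3 alone the difference was 0.19.

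Of 24 myelin genes tested, 16 were higher in PHD1-/- and 8 lower, where 1318 of 2705 genes with a value were higher. The median of 0.07 turned to -0.05 in replicates 2 and 3 alone, and leaving out 1 library gave -0.10 to 0.16. Mbp differed by -0.17 ± 0.23, Mog by 0.07 ± 0.29 and Mag by 0.13 ± 0.24. Medians were -0.07 for 17 transcription factors, 0.00 for 26 receptors and adhesion genes, 0.01 for 26 skeleton genes, 0.12 for 14 Wnt, BMP, Notch, FGF and ErbB genes and -0.10 for 17 glutamate, GABA and channel genes. The median was 0.10 for 18 cholesterol and lipid genes, with Hmgcs1 at 0.47 ± 0.37 and Cers2, a ceramide synthase, at -0.62 ± 0.38. Leaving out 1 library turned the sign of each of these medians but that of the glutamate, GABA and channel genes, which turned to 0.04 in replicates 2 and 3 alone. No gene of these lists passed.

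Egln2 was too low in members to test. It had 0, 1 and 2 UMIs in PHD1-/- replicates 1, 2 and 3, against 1, 3 and 0 in PHD1+/+, or 7.03 CPM (exact Poisson interval 1.45 to 20.5) over PHD1-/- members and 11.04 CPM (3.01 to 28.3) over PHD1+/+ members. In mature oligodendrocytes, with more RNA, it was at 10.2, 14.9 and 14.4 CPM in PHD1-/- and 33.2, 24.5 and 20.7 CPM in PHD1+/+. Egln1 had 22 member UMIs in all and Egln3 had 3, and neither entered the test. Hif1a, the hypoxia-inducible subunit that these hydroxylases mark for breakdown, was at 131, 61.7 and 105 CPM in PHD1-/- replicates 1, 2 and 3, against 218, 138 and 181 CPM in PHD1+/+. The groups did not overlap, but the log2 difference of -0.86 ± 0.42 did not pass (SE; edgeR adjusted p = 1.00). Of 30 HIF targets 4 were tested, with 1 higher and 3 lower in PHD1-/- and a median of -0.36. That median was -0.14 in replicates 2 and 3 alone, and leaving out 1 library gave -0.83 to 0.04. P4ha1, a collagen prolyl hydroxylase, differed by -0.89 ± 0.45.

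Few stress and immune genes reached the test. Of 58 interferon-stimulated genes 2 were tested, H2-K1, an antigen-presenting protein, at 0.77 ± 0.48 and Ifi27 at 0.58 ± 0.92, neither past the threshold. Of 20 disease-associated oligodendrocyte genes 7 were tested with a median of 0.10, of 27 genes of the ATF4 stress response Vldlr alone at -0.34, and of 28 cell cycle genes 2 with a median of 0.17. The medians were -0.39 for 16 ribosomal protein genes, -0.24 for 10 oxidative phosphorylation genes and 0.02 for 6 mitochondrially encoded genes. In replicates 2 and 3 alone the first 2 of these became 0.08 and 0.10. Ribosomal protein genes summed to 6420 CPM in PHD1+/+ replicate 1, against 1938 to 3183 CPM in the other 5 libraries.

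Whether the genotype difference in members departed from that in the rest of the lineage was tested as an interaction in edgeR, with precursors and mature oligodendrocytes summed. Mature oligodendrocytes, 9347 nuclei against 509 precursors, gave most of that sum, so the test says little about precursors. Of 11344 genes, 0 passed an adjusted p of 0.05, and 361 had an unadjusted p under 0.05 (3.18%). DESeq2 passed 0, with 102 at an unadjusted p under 0.05. The smallest p belonged to Kcnip4, a potassium channel partner, with an interaction of 1.48 on the log2 scale (edgeR adjusted p = 1.00) and 105 member UMIs. Without PHD1-/- replicate 1, 3 genes passed, Kcnip4 at 2.28, Nrg1 at 1.58 and Rmst at 3.87, the last with 22 member UMIs, so these calls rest on leaving out that library.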

How the data were processed

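Droplet 3' libraries of nuclei from frozen lumbar cord were deposited as raw UMI counts per gene and barcode. Per the file headers, Cell Ranger 5.0.1 made them; version 5.0.2, with Scanpy 1.8.1 and mm10, stands in the submitters' processing notes. Intron counting and strand use are not given in the sources used here. The deposited barcodes numbered 42758, with 14120298 to 33794389 UMIs per library. Members and gene lists were chosen with earlier results of these data known. Precursors held 2 Pdgfra UMIs, or 1 with Cspg4. Scrublet (Scanpy 1.11.5) marked 2 members and none in replicate 1, where it did not work, so doublets were kept. UMIs summed per library were tested with edgeR 4.0.16 (R 4.3.3; TMM, filterByExpr, quasi-likelihood, Benjamini-Hochberg over all genes, threshold 0.05) and DESeq2 1.42.0, in code tested on simulated data. Genes named by genotype were the 8 of smallest p per direction, since none passed. Deviations of same-numbered libraries correlated at 0.46, 0.26 and 0.24 for numbers 1, 2 and 3. Each was over 0.1, and the replicate block takes the numbers as pairs. Numbers 2 and 3 correlated as well when crossed (0.32 and 0.29), while number 1 stood apart from both (-0.37 to -0.34). These values therefore cannot show how the libraries of numbers 2 and 3 pair. Gene positions are from GENCODE vM21 (GRCm38, also called mm10). P-values measure the spread between libraries, which may be partly technical.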

Additional observations from a re-analysis of the deposited data

How the results depend on the processing

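The difference between genotypes in the share of members among nuclei, PHD1-/- minus PHD1+/+, was 0.0860 percentage points and turned to -0.00994 with nuclei thinned to 1000 UMIs, -0.00570 where members needed Gpr17 and -0.0323 without members that held Mog or Mag. Leaving out 1 library gave -0.0348 to 0.242, the negative value without PHD1+/+ replicate 1. Of lineage nuclei the difference of 0.209 turned to -0.0227, -0.106 and -0.183 under the same 3 changes and to -0.0284 in replicates 2 and 3 only, and leaving out 1 library gave -0.122 to 0.540. The cause was not tested. With the replicate block the exact sign-flip p was 0.50 and 0.75 (smallest possible 0.25), and the block changed no call. Where members needed a 9630013A20Rik UMI, a change chosen after the data were seen, the differences were 0.0734 and 0.244. The gene test passed 0 genes under every alternative run, with 0 under the replicate block and in each leave-one-out fit. The interaction test passed 0 to 3 genes when 1 library was left out and 0 otherwise, also over the 2709 genes of the member test alone, a restriction chosen after the data were seen. Of 223 values of the 16 named genes and Hif1a under the alternatives, all 223 kept their direction. The 16 were chosen by their p in these same libraries, so a kept direction was largely fixed beforehand. Genes removed by the count filter under an alternative gave no value there. Without members that held Mog or Mag, this left out all of the named genes and Hif1a. Depth limits the precision of each value, a library holding 25 to 68 members.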

Other observations

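Nuclei with a strong 9630013A20Rik signal lay outside the rule nearly as often as inside it. Of 227 nuclei with at least 3 UMIs of this RNA, 119 were members and 108 were not. Members were 246 of all 42628 nuclei, so the RNA was far rarer per nucleus outside the rule. Of the 108, 50 held Klk6 or Hapln2, 43 held more than 1 Snap25 or Rbfox3 UMI, 20 had no Bcas1, 7 held Pdgfra and 51 had no Gpr17 and fewer than 2 Enpp6 UMIs, with some failing several terms. Failing 1 term alone kept 26 out by Klk6 or Hapln2, 18 by the Gpr17 and Enpp6 term, 13 by the neuronal genes, 3 by Pdgfra and 3 by Bcas1. The 26 had 7150 CPM of 9630013A20Rik, 501 CPM of Mog and 416 CPM of Vcan, against 5564, 319 and 875 CPM in the 119 members.

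Cd9, a tetraspanin of the lineage, averaged 1465 ± 665 CPM in members, 864 ± 419 CPM in precursors and 355 ± 113 CPM in mature oligodendrocytes (SD over 6 libraries). Elovl7, a fatty acid elongase, was at 381 ± 135 CPM in members and 362 ± 103 CPM in mature oligodendrocytes, against 10.7 ± 7.04 CPM in precursors. Apod, which encodes apolipoprotein D, was below both, at 436 ± 107 CPM in members, 972 ± 453 CPM in precursors and 1629 ± 220 CPM in mature oligodendrocytes.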
